A study of Homo sapiens with 14 samples.

Results

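The kidney development transcription factors examined here were PAX2, PAX8, WT1, SIX2, EYA1, LHX1, SALL1 and OSR1. They were chosen by name as regulators of the embryonic kidney, with earlier results of these data known. They made up 8 of the 58440 genes counted in every library. The question was how much of the nephric program a cell line derived from embryonic kidney keeps. In the embryo, OSR1, PAX2, PAX8 and LHX1 act in the intermediate mesoderm and nephric duct, from which the kidney forms. SIX2, EYA1, SALL1 and WT1 act in the metanephric mesenchyme, where SIX2 keeps nephron progenitors from differentiating, EYA1 is its cofactor, and WT1 is needed for survival of the mesenchyme and later for podocytes.

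The study mixed HEK-293T cells, an adherent line made from human embryonic kidney, with Jurkat cells, a leukemic human T cell line, to test the deconvolution of mixtures. RNA-seq covered HEK cells alone (100% HEK), Jurkat cells alone (0% HEK) and samples in which 80%, 60%, 50%, 40% or 20% of 1000000 cells were HEK. Each condition had 2 libraries, which the labels name technical replicates, so p-values measure only the spread between such libraries. RNA was taken up on oligo-dT beads, with synthetic ERCC spike-in RNAs added. The libraries held from 4468822 to 28303668 counts on genes. The pure HEK libraries held 9452243 and 15158082, and the pure Jurkat libraries 4468822 and 6204316. Levels are given as CPM, the counts scaled to the sum over genes of each library, and as TPM, which also divide by transcript length, where genes are compared with each other. A level of 3 counts over the pair of libraries was 0.122 CPM in pure HEK and 0.281 CPM in pure Jurkat, and was taken as the floor. Floors and intervals cover counting error only. The names of the files form groups of 8 and 6 libraries, of unstated meaning. Pure HEK fell wholly in the smaller and pure Jurkat wholly in the larger, so for these 4 libraries line and name group cannot be told apart.

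The lines carried their own markers. The 9 T cell markers summed to 2416 and 2837 CPM in pure Jurkat and to 5.82 and 2.64 CPM in pure HEK, where CD5 was at 0 and LCK had the highest mean, with CD3G above it in replicate 1. All 9 were higher in Jurkat by edgeR's quasi-likelihood test at an adjusted p under 0.05, as were 19.0% of all genes tested. Epithelial markers summed to 50.8 and 51.5 CPM in HEK and 2.01 and 1.77 CPM in Jurkat, with KRT18 the most abundant in HEK and KRT19 at 0 in both lines. Of these 5 markers, 4 were tested and higher in HEK, as were 24.2% of all genes tested. Mesenchymal markers, led by VIM in both lines, summed to 411 and 408 CPM in HEK and 315 and 423 CPM in Jurkat.

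Of the 8 factors, 6 had enough counts for the test between the pure lines and 5 were higher in HEK. These were LHX1, SALL1, EYA1, SIX2 and PAX2, and none was higher in Jurkat. Over all 15794 genes tested, 24.2% were higher in HEK and 19.0% higher in Jurkat. WT1 was tested and did not pass, and PAX8 and OSR1 were left out by the filter on low counts. A gene at the floor in Jurkat can pass that filter only through its level in HEK, so the count describes these genes and is not set against chance.

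**Figure D1:**
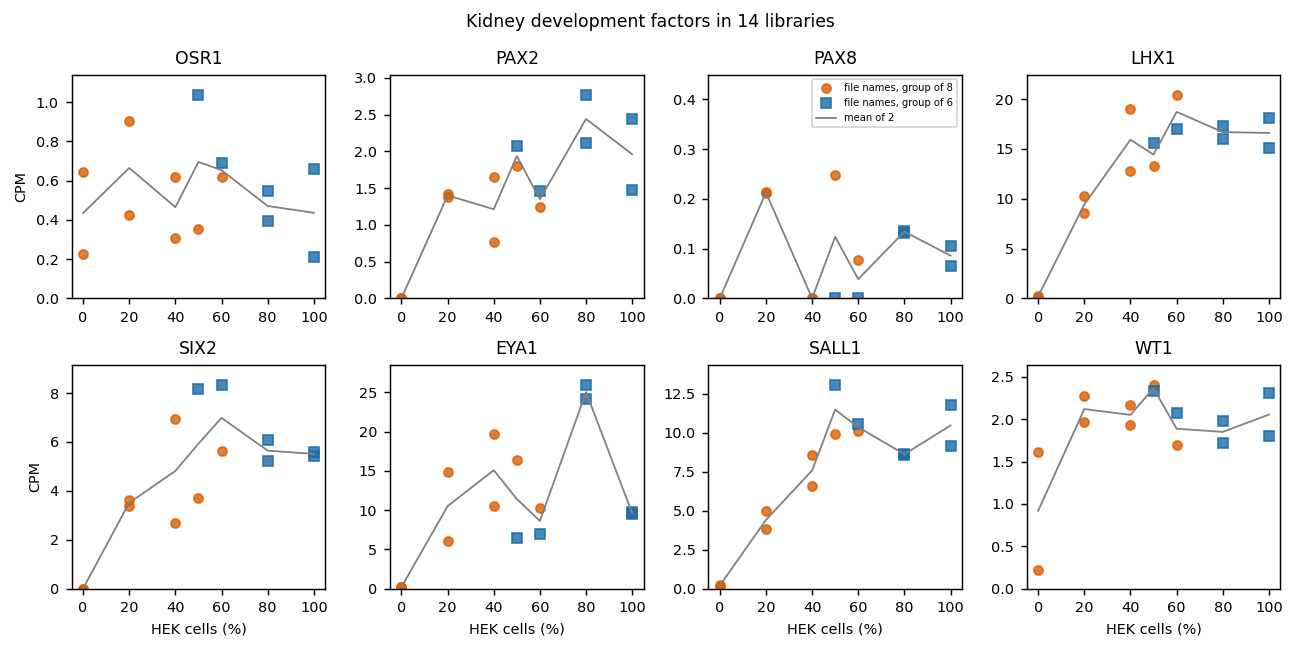
CPM of each factor (vertical axis, a scale of its own in each panel) against the percentage of HEK cells (horizontal axis) in 14 libraries, with the group of file names as the colour and a line through the mean of 2 libraries. LHX1 was at 8.60 CPM or more in every library with HEK cells and at 0.224 and 0.161 CPM in pure Jurkat, EYA1 peaked at 80% HEK, and PAX8 stayed at or under 0.247 CPM.

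LHX1, a LIM homeodomain factor of the nephric duct and of early nephrons, was the most abundant of the 8 in HEK. It lies at chr17:36936785-36944612 (GRCh38). Its level was 15.1 and 18.1 CPM in pure HEK, 17.3 and 16.0 with 80% HEK cells, 17.0 and 20.4 with 60%, and 13.3 and 15.6 with 50%. The libraries with 40% held 12.8 and 19.0 CPM, those with 20% held 10.2 and 8.60, and pure Jurkat held 0.224 and 0.161, which is 1 count in each library. Every library with HEK cells was far above both Jurkat libraries. The ratio of pure HEK to pure Jurkat was 90.4 (95% counting interval 24.9 to 749), and the fitted log2 fold change was 6.15 (SE 0.42, edgeR adjusted p = 0.000828, n = 2 per line).

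PAX2, a paired-box factor of the nephric duct and the condensing mesenchyme, was present at a much lower level. It lies at chr10:100735396-100829944. Pure HEK held 1.48 and 2.44 CPM, from 14 and 37 counts, and pure Jurkat held 0 counts in both libraries. The 10 mixed libraries ranged from 0.772 to 2.77 CPM, so each of them was above Jurkat. PAX2 was at least 7.37-fold higher in HEK, taking the floor of the Jurkat pair (edgeR adjusted p = 0.0179). The call was lost without pure HEK replicate 1 (adjusted p = 0.0835) and without pure Jurkat replicate 2 (adjusted p = 0.0542), and PAX2 was not tested without pure HEK replicate 2.

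PAX8, a close relative of PAX2 in the nephric lineage, was at the floor. It lies at chr2:113215997-113278921. It had 1 count in each pure HEK library and 0 in each pure Jurkat library, and no more than 7 counts in any of the 14. No fold is given for it. The antisense gene PAX8-AS1, which overlaps it, had 1 and 4 counts in HEK and 1 and 4 in Jurkat.

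OSR1, a zinc finger factor that marks the intermediate mesoderm before the other factors, was also near the floor. It lies at chr2:19351485-19358623. Pure HEK held 0.212 and 0.660 CPM and pure Jurkat 0.224 and 0.645 CPM, so the lines overlapped. The ratio of HEK to Jurkat was 1.04 with an interval from 0.341 to 3.77, and a difference within that interval was not detectable at this depth. Its relative OSR2 was at 6.56 and 4.02 CPM in HEK and 2.69 and 1.13 CPM in Jurkat, and did not pass the test (log2 fold change 1.28, SE 0.52, adjusted p = 0.104).

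SIX2, the homeodomain factor of nephron progenitors, was found in every library with HEK cells and in neither pure Jurkat library. Its level was 5.42 and 5.61 CPM in pure HEK, 5.23 and 6.07 with 80% HEK cells, 8.33 and 5.64 with 60%, and 3.70 and 8.17 with 50%. It was 2.70 and 6.92 CPM with 40%, 3.40 and 3.63 with 20%, and 0 in both pure Jurkat libraries. SIX2 was at least 19.7-fold higher in pure HEK than the floor of the Jurkat pair (adjusted p = 0.00427).

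SIX6, a factor of the same family that is known for eye and pituitary development, had the opposite pattern. It was at 0 and 0.0660 CPM in pure HEK, a single count, and at 140 and 210 CPM in pure Jurkat. The ratio of Jurkat to HEK was 4446 (797 to 175700), and the adjusted p was 0.00064. SIX6 was higher in Jurkat also with spike-in scaling. The stretches of 250 bases before the start of both genes are shown because the pair was found in opposite lines, with SIX2 at chr2:45009453-45009702 on the minus strand and SIX6 at chr14:60508896-60509145 on the plus strand (RefSeq, GRCh38.p14). Capitals mark the runs of 11 or more bases that both stretches share.
SIX2: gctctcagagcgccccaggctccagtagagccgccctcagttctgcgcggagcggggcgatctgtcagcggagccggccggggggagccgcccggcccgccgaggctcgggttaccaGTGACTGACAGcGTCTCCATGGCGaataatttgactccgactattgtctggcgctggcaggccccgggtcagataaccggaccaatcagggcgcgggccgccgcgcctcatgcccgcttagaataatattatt
SIX6: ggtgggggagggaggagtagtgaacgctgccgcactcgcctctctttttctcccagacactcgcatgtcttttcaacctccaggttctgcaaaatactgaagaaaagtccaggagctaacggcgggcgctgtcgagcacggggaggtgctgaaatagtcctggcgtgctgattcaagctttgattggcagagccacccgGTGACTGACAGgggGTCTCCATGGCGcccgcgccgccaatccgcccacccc
A script found 2 such runs, GTGACTGACAG and GTCTCCATGGCG, in the same order. In both genes a short gap separates them. The runs were found by comparing these 2 stretches, so their presence in both is given by the search. On either strand, GTGACTGACAG was found in 22 of 35116 promoter windows of the same length (0.0626%) and GTCTCCATGGCG in 12 (0.0342%), and SIX2 and SIX6 were the only ones with both. The common motif CCAAT, searched on both strands, was found 1 time in the SIX2 stretch, 2 times in that of SIX6 and in 32.0% of all windows. CCGCCC was found 2 times in SIX2, 1 time in SIX6 and in 42.6% of all windows. Of the 8 factors, 4 matched the promoter table, and LHX1, SALL1 and OSR1 were among those without an entry used here. These matches describe the letters and say nothing of which proteins bind there.

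EYA1, a phosphatase and transcriptional coactivator that works with SIX2 and its relatives, varied between libraries. It lies at chr8:71197433-71592025. Its level was 9.70 and 9.50 CPM in pure HEK and 25.9 and 24.2 CPM at 80% HEK. With 60% HEK cells it was 6.95 and 10.3 CPM, with 50% it was 16.4 and 6.46, with 40% it was 19.7 and 10.5, with 20% it was 6.10 and 14.9, and pure Jurkat held 0.224 and 0.161. Both libraries at 80% HEK lay above both of pure HEK, although they held fewer HEK cells. The ratio of pure HEK to pure Jurkat was 51.2 (14.0 to 425), with a fitted log2 fold change of 5.36 (SE 0.44, adjusted p = 0.00116). The 2 genes that overlap it had at most 1 count in a pure HEK library and 0 in pure Jurkat, and were not examined in the mixed libraries.

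SALL1, a zinc finger factor needed for the ureteric bud to enter the mesenchyme, lay between 8.57 and 13.0 CPM in every library with 50% HEK cells or more. It lies at chr16:51135982-51152334. It was at 11.7 and 9.17 CPM in pure HEK, 8.57 and 8.65 with 80% HEK cells, 10.6 and 10.1 with 60%, and 9.89 and 13.0 with 50%. It was at 6.57 and 8.58 CPM with 40%, 3.82 and 4.98 with 20%, and 0.224 and 0.161 in pure Jurkat. The ratio of HEK to Jurkat was 54.2 (14.9 to 450), with a fitted log2 fold change of 5.47 (SE 0.47, adjusted p = 0.00135). The 2 antisense genes that overlap it have no symbol and held 0 and 7 counts and 5 and 2 counts in HEK, and 0 in Jurkat.

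WT1, a zinc finger factor of the mesenchyme and of podocytes that is also known from leukemia, was counted in both lines. It lies at chr11:32387775-32435564. Pure HEK held 1.80 and 2.31 CPM, and pure Jurkat 0.224 and 1.61 CPM, from 1 and 10 counts. The Jurkat libraries differed 7.20-fold (1.02 to 313), and the 10 mixed libraries lay between 1.70 and 2.40 CPM. The ratio of HEK to Jurkat was 2.05 (1.06 to 4.36), and edgeR gave a log2 fold change of 0.82 (SE 0.72, adjusted p = 0.400). It was 0.12 without pure Jurkat replicate 1 (adjusted p = 0.863) and 2.94 without pure Jurkat replicate 2 (adjusted p = 0.0746). With scaling by spike-ins, 92.5% of all genes tested were called higher in HEK and the median gene was 3.61 higher on the log2 scale. WT1 was then 4.29 higher and passed (adjusted p = 3.19e-08). Gene counts per spike-in count were 147 and 97.3 in pure HEK and 12.1 and 12.3 in pure Jurkat, and they were 46.6 and 123 in the libraries with 80% HEK cells. The antisense gene WT1-AS had 2 and 5 counts in HEK, and the authors call the libraries strand-specific, while the strand setting of the counting is not stated.

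Set side by side by deposited TPM, the factors in pure HEK ran from LHX1 at 6.98 and 7.25 TPM to PAX8 at 0.03 and 0.02 TPM. EYA1 followed LHX1 with 3.74 and 3.42 TPM, then SIX2 with 2.44 and 2.54, SALL1 with 2.76 and 1.76, PAX2 with 1.04 and 1.69, WT1 with 0.74 and 0.95 and OSR1 with 0.05 and 0.22. The libraries of SIX2 and SALL1 overlapped, and those of the other neighbours did not. Among 29296 genes above 0 in HEK, LHX1 was at the 72.1 percentile of mean TPM, EYA1 at 63.5, SIX2 at 59.0, SALL1 at 57.7, PAX2 at 51.3, WT1 at 45.1, OSR1 at 20.0 and PAX8 at 2.93. Without division by length, by mean CPM, SALL1 ranked 2, EYA1 3, SIX2 4, WT1 5 and PAX2 6.

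The relatives of the factors were compared between the pure lines as well. Of 26 other genes of the families of these factors, 20 were tested, 15 were higher in HEK and 2 in Jurkat. Among all genes tested, 24.2% were higher in HEK and 19.0% higher in Jurkat. Of the 26 genes, 8 were at 0 in Jurkat and could be tested only through their level in HEK, so the count describes these genes. Among the relatives of SIX2, SIX4 was at 7.72 and 10.8 CPM in HEK and 0.448 and 0.806 CPM in Jurkat, a ratio of 14.7 (7.02 to 36.9). SIX3 was higher in Jurkat, with 9.62 and 11.3 CPM against 1.90 and 3.03 in HEK, and its direction turned with spike-in scaling (log2 fold change 1.17, adjusted p = 0.0616).

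Among the PAX genes, PAX6, a regulator of eye and brain, was at 27.3 and 31.9 TPM in HEK, above the 1.04 and 1.69 TPM of PAX2. PAX6 was higher in HEK with a ratio of 6.65 (5.15 to 8.72), and PAX3, a neural crest and muscle factor, with a ratio of 106 (18.9 to 4214). In the EYA family all 3 relatives were higher in HEK. EYA4 was at 22.2 and 21.8 CPM against 0 in Jurkat and EYA2 at 4.34 and 3.56 CPM against 0, while EYA3 was at 27.2 and 17.3 CPM against 10.5 and 7.74. SALL2, SALL3 and SALL4 were higher in HEK, as were 5 of the 7 other LHX genes, LHX2, LHX4, LHX6, LHX8 and LHX9, with LHX3 and LHX5 at 0 in both lines. Reads that fit several genes were divided between them, and 22 of the 112 counts of the 8 factors were not whole numbers to within 0.005.

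**Figure D2:**
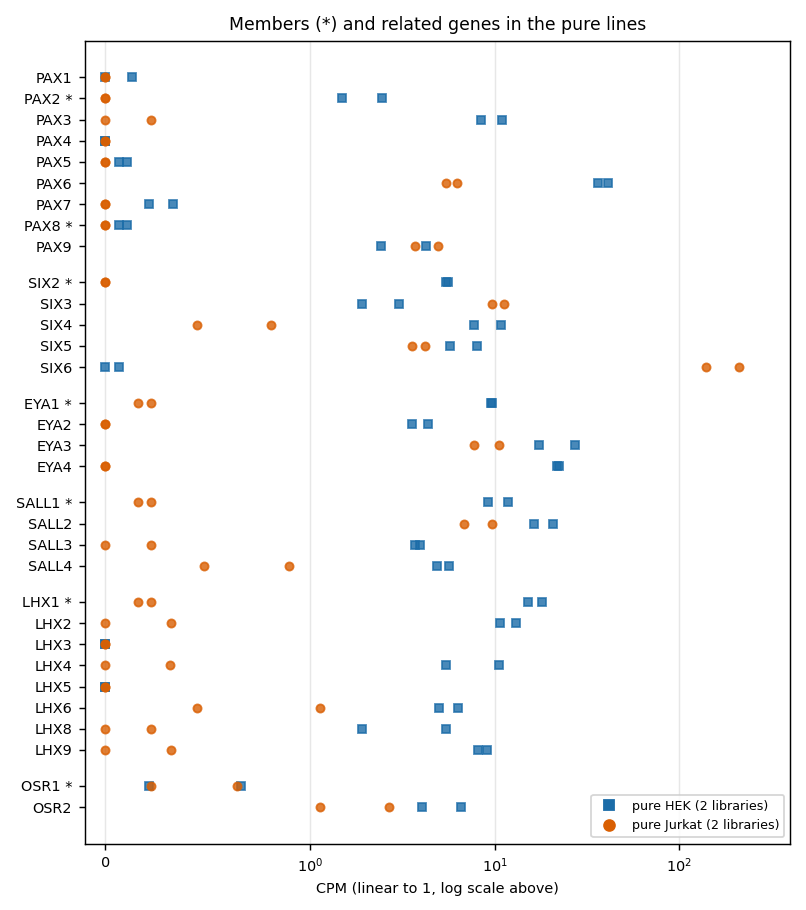
CPM (horizontal axis, linear up to 1 and logarithmic above) of the 7 factors other than WT1, marked with a star, and of genes of their families in pure HEK (squares, 2 libraries) and pure Jurkat (circles, 2 libraries). SIX6 at 140 and 210 CPM in Jurkat was at 0 and 0.0660 CPM in HEK, where SIX2 was at 5.42 and 5.61 CPM.

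The other genes of kidney development were taken from lists of 82 genes, the families included. Of these, 47 were tested, 33 were higher in HEK and 6 higher in Jurkat, with a median log2 fold change of 3.70. Among all genes tested, 24.2% were higher in HEK and 19.0% higher in Jurkat, with a median of 0.07. In Jurkat 31 of the 82 genes were at 0, and such genes could pass the filter on low counts only through their level in HEK. The counts of this and the lists below therefore describe these genes and are not set against chance. With spike-in scaling, under which 92.5% of all genes were called higher in HEK, 43 of the 47 were higher in HEK and 1, SIX6, in Jurkat. GATA3 was then lower in HEK without passing, and SIX3, FGF9, GFRA1 and IRX3 turned to higher values in HEK, with FGF9 and IRX3 passing. A further 21 genes were at or under the floor in both lines. Of 13 progenitor genes and partners of the factors, 8 were higher in HEK and none in Jurkat. FOXC1, a forkhead factor of the nephrogenic mesenchyme, was at 512 and 450 CPM in HEK and 2.01 and 2.58 in Jurkat. DACH1, a partner of EYA1 and its relatives, was at 155 and 182 CPM against 0.674 and 0.484. HOXD11, a patterning gene of the metanephric mesenchyme, was at 64.1 and 104 CPM against 0.448 and 0.484, and BASP1, a corepressor of WT1, at 34.3 and 36.2 CPM against 0.224 and 0.322.

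Of 10 signals of the mesenchyme, 4 were higher in HEK and 1 in Jurkat. BMP7, which supports nephron progenitors, was at 39.7 and 33.5 CPM in HEK and 0 in Jurkat, at least 128-fold higher. ROBO2, a receptor that restricts where GDNF is made, was at 16.0 and 18.3 CPM, and ITGA8, the integrin of the mesenchyme, at 10.6 and 15.1 CPM, against 0.224 and 0.484 CPM and 0 in Jurkat. GDNF, the signal that draws out the ureteric bud, had 1.16 and 2.44 CPM in HEK and was not tested. FGF9, a growth factor for progenitors, was higher in Jurkat, with 60.6 and 36.7 CPM against 20.4 and 16.4 in HEK. Among 10 genes of the duct and ureteric bud, EMX2 was higher in HEK and GATA3 and GFRA1 were higher in Jurkat. GATA3, which is a factor of the nephric duct and also of T cells, was at 17.4 and 18.1 CPM in HEK and 363 and 162 in Jurkat. RET, the GDNF receptor of the bud, had 0.529 and 1.19 CPM in HEK and was not tested.

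Of 16 genes of the tubule segments of the mature nephron, 9 were at or under the floor in both lines, among them SLC34A1, SLC22A6, UMOD, SLC12A3 and AQP2. LRP2, the endocytic receptor of the proximal tubule, was at 13.3 and 17.9 CPM in HEK and 0.448 and 0.322 in Jurkat, and POU3F3 was also higher in HEK, while IRX3 was higher in Jurkat. Of 7 podocyte genes 3 were higher in HEK, PODXL and LMX1B among them, and NPHS1, which encodes the slit diaphragm protein nephrin, was at or under the floor in both.

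**Figure D3:**
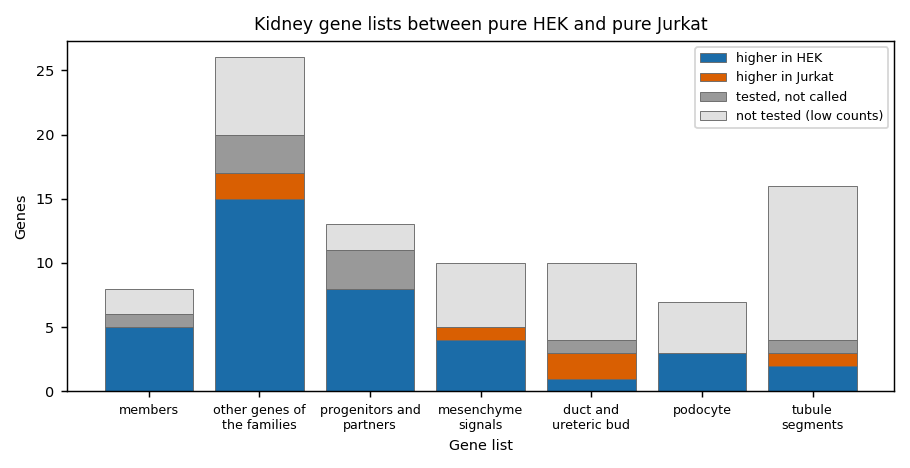
Number of genes (vertical axis) in each kidney list (horizontal axis) that were higher in HEK, higher in Jurkat, tested without a call, or not tested for low counts, in edgeR's comparison of 2 pure HEK and 2 pure Jurkat libraries. Of the 8 factors 5 were higher in HEK, and of the 16 genes of tubule segments 12 were not tested.

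The 10 mixed libraries took no part in the comparison of the pure lines. Along their HEK percentages, edgeR called none of the 6 factors tested, and 2 of them, LHX1 and SALL1, had an unadjusted p under 0.05. DESeq2 called 0 as well. Over all 17242 genes tested, 0.528% rose with the HEK percentage and 5.08% fell. The 91 rising genes became 271 with DESeq2 and from 18 to 209 with a library left out. The fitted slopes per 20 percentage points were 0.24 for LHX1 on the log2 scale (SE 0.09, adjusted p = 0.160), 0.31 for SALL1 (SE 0.13, adjusted p = 0.228) and 0.31 for EYA1 (SE 0.19, adjusted p = 0.447). They were 0.25 for PAX2 (SE 0.13), 0.24 for SIX2 (SE 0.13) and -0.09 for WT1 (SE 0.10). With a library left out they ran from 0.16 to 0.31 for LHX1, 0.19 to 0.41 for SALL1, 0.19 to 0.46 for EYA1, 0.13 to 0.29 for PAX2 and 0.20 to 0.31 for SIX2. With the name group as a covariate they were 0.36 for LHX1 (SE 0.12), 0.30 for SALL1 (SE 0.18), 0.67 for EYA1 (SE 0.31), 0.14 for PAX2 (SE 0.20) and 0.05 for SIX2 (SE 0.17), and none of these fits passed. Without either library at 20% HEK, no factor had an unadjusted p under 0.05. With spike-in scaling, 78.2% of all genes tested rose and the median slope was 0.61, and the 5 factors other than WT1 passed with slopes from 0.83 to 0.90. Of the other kidney genes, FOXC2 rose with the HEK percentage and GATA3, GFRA1 and SIX6 fell. With spike-in scaling FOXC2 rose, GATA3, GFRA1 and SIX6 did not pass, and the slope of GFRA1 was positive. With the name group as a covariate, GATA3 (adjusted p = 0.00164) and FOXC2 (adjusted p = 0.0499) were called, and GFRA1 (adjusted p = 0.132) and SIX6 (adjusted p = 0.0914) were not, with slopes of -0.45 and -0.79 against -0.45 and -0.87 in the main fit. FOXC2 was not called without any 1 of the 4 libraries at 80% or 20% HEK (slopes from 0.39 to 0.45 against 0.45, adjusted p from 0.114 to 0.182) or without the filter on low counts (adjusted p = 0.0674), and GFRA1 was not called without 20% HEK replicate 1 (adjusted p = 0.0551).

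HEK cells gave more RNA than their share of cells. From 247 genes that were at 20 CPM or more in pure HEK and under 1/50 of that in Jurkat, the HEK share of RNA was 93.8% and 94.1% where 80% of cells were HEK, 88.4% and 88.0% for 60%, and 75.6% and 71.6% for 50%. It was 77.8% and 80.1% for 40% and 54.4% and 58.3% for 20%, so that both libraries with 50% HEK cells lay below both with 40%. These shares are medians over the 247 genes, and the quartiles for 50% and 40% overlapped widely. They ran from 65.4% to 91.5% and 57.3% to 98.0% for 50%, and from 63.0% to 96.9% and 58.7% to 95.7% for 40%. In a mixed library, the HEK share of RNA alone cannot tell fewer HEK cells from less RNA per cell. The share itself had a slope of 0.24 per 20 points on the log2 scale, and in the main fit the slopes of the 5 factors other than WT1 were within 1 SE of it. With the name group as a covariate, those of LHX1 and EYA1 were more than 1 SE above it and that of SIX2 more than 1 SE below. The share computed from the spike-ins of the pure lines had a slope of 0.15, and LHX1 and SALL1 lay more than 1 SE above that.

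Divided by the HEK share of RNA, the level of LHX1 in the mixed libraries had a median of 18.7 CPM and ran from 14.8 to 23.7, with 16.6 CPM as its mean in pure HEK. SALL1 had a median of 9.95 (7.02 to 18.2) with 10.5 in pure HEK, SIX2 6.32 (3.47 to 11.4) with 5.51, and PAX2 2.31 (0.993 to 2.95) with 1.96. EYA1 had a median of 17.4 (7.87 to 27.7) with 9.60 in pure HEK, and was above both pure HEK libraries in 8 of 10. SIX2 and WT1 were above both in 7 of 10, LHX1 in 6, and PAX2 and SALL1 in 3. These counts hold for the share from marker genes. With the share computed from the spike-ins, the medians were lower, at 16.8 CPM for LHX1, 9.37 for SALL1 and 15.0 for EYA1. They were 5.69 CPM for SIX2, 1.955 for PAX2 and 2.36 for WT1. Libraries above pure HEK were not counted with the spike-in share. WT1, which Jurkat also had, was highest per HEK share at 20% HEK, with 3.61 and 3.90 CPM.

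**Figure D4:**
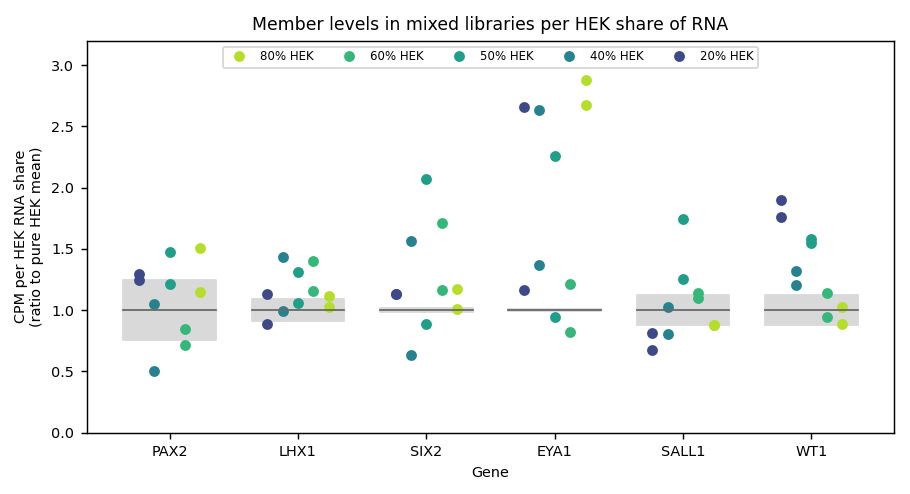
CPM divided by the HEK share of RNA, as a ratio to the pure HEK mean (vertical axis), for 6 factors (horizontal axis) in the 10 mixed libraries, coloured by HEK percentage; the line at 1 is the pure HEK mean and the grey band the range of the 2 pure HEK libraries. EYA1 reached 2.88 times the pure HEK mean, and LHX1 stayed between 0.889 and 1.43 times.

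The rise of EYA1 at 80% HEK was examined after its values had been seen. All 4 libraries of pure HEK and 80% HEK were in the same group of file names. EYA1 was 1.43 higher at 80% HEK on the log2 scale (SE 0.19, edgeR), and its adjusted p of 0.0501 did not pass. None of the 6 factors tested passed, and EYA1 was the 1 with an unadjusted p under 0.05. Of 17179 genes tested, 0.431% were higher at 80% HEK, among them SIX6 and T cell markers such as PTPRC and CD3D. With a library left out, the log2 difference of EYA1 was 1.433 without pure HEK replicate 1 and 1.415 without replicate 2. It was 1.327 without 80% HEK replicate 1 and 1.522 without replicate 2. Each of these fits left 1 library in a condition.

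EYA1 also differed between the libraries of a condition. The ratio of the higher to the lower library was 2.53 (2.05 to 3.16) for 50% HEK cells, 2.44 (1.94 to 3.10) for 20%, 1.87 (1.47 to 2.37) for 40% and 1.48 (1.11 to 1.97) for 60%, against 1.02 in pure HEK and 1.07 for 80%. SIX2 differed 2.21-fold (1.69 to 2.87) for 50%, 2.56-fold (1.68 to 3.97) for 40% and 1.48-fold (1.08 to 2.03) for 60%, in the other direction, so that in these conditions the library with more EYA1 had less SIX2. For 20% the library with more EYA1 had 3.63 CPM of SIX2 and the other 3.40. For 50% and 60% the library with more EYA1 was in the larger name group and the other in the smaller. In those conditions, differences between libraries and between name groups cannot be told apart. The libraries for 40% and 20% were all in the larger name group. LHX1 differed by 1.48-fold or less. The mean length of transcripts, weighted by TPM, also differed between these libraries. For 50% it was 1031 bases in the library with more EYA1 and 968 in the other, and for 40% it was 1024 and 984. For 60% it was 979 bases in the library with more EYA1 and 992 in the other, and for 20% it was 1015 and 1023. Its part in the levels was not tested. The ratios above are of CPM. In TPM, the libraries at 80% HEK held 13.52 and 8.31 of EYA1, with deposited EYA1 lengths of 1890 and 2880 bases. Within the smaller name group, 4 mixed libraries with 50% to 80% HEK cells gave EYA1 a slope of 1.55 per 20 points. That slope (SE 0.20, edgeR adjusted p = 0.0243) includes the libraries at 80% whose level prompted the comparison. Of all 17458 genes in that fit, 434 were called rising and 165 falling. Within the larger name group, 6 mixed libraries with 20% to 60% gave EYA1 a slope of 0.17 (SE 0.33, adjusted p = 0.910). Of all 17605 genes in that fit, 0 were called rising and 203 falling. The slope of SALL1 was 0.65 in the larger and -0.24 in the smaller name group, and that of SIX2 was 0.25 and -0.26, so the direction of both turned, with neither passing.

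The genes most like each factor were sought among 11464 genes by Pearson's r of log2(CPM + 1) over the 14 libraries, as a description, since all such genes share the contrast between the lines and the depth of the libraries. For LHX1 these were CKMT1A, TPBG and C3orf14, with r from 0.993 to 0.994. SALL1 was most like CDX2 (r = 0.990), an intestinal homeobox factor at 10.1 CPM in HEK, followed by PNMA8A and TMSB15A. SIX2 was most like MPI (r = 0.994), CD63 and ATP6AP1, and EYA1 most like SPATS2L (r = 0.970), MYO5C and SDK2. For PAX2 these were RCN1, NKIRAS1 and SLC25A24, with RCN1 at 0.967. For WT1 they were GET4 (r = 0.922), SEC24C and MBTPS2.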

How the data were processed

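The 14 RNA-seq libraries, at 7 percentages of HEK-293T among Jurkat cells, were grouped by their labels. The authors aligned reads with STAR 2.6.1b to GRCh38 with ERCC sequences and deposited RSEM 1.3.1 expected counts, not normalized. The deposited TPM were scaled by RSEM over genes and spike-ins together. The authors call the libraries strand-specific, and the strand setting of RSEM and the annotation are not given in the sources used here. Symbols came from GENCODE release 44, which matched 57754 of 58440 genes, the others holding at most 0.327% of counts. CPM were computed over genes without the 92 spike-ins.

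Expected counts were rounded and tested by the quasi-likelihood fit of edgeR 4.0.16 (TMM scaling, filterByExpr, glmQLFTest) in R 4.3.3, with Benjamini-Hochberg adjustment over all genes tested at 0.05. The pure lines were compared over 4 libraries, and a slope on the HEK percentage was fitted over the 10 mixed libraries. DESeq2 1.42.0, other scalings and left-out libraries were alternatives. Ratios have exact Clopper-Pearson intervals at 95%. Python 3.11.15, pandas 2.3.3, numpy 2.4.6, scipy 1.17.1 and matplotlib 3.10.9 were used. The tests were tried on simulated data.

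All 8 factors are named, and up to 4 genes per list are given with values, those highest in the higher line among genes that passed. Some genes at the floor, genes with a symbol that overlap PAX8 or WT1 and the 3 genes most like each factor with a mean of at least 1 CPM, among genes of at least 5 CPM, are named too. GDNF, RET and OSR2 did not pass and were named after their values were seen. The members and lists were chosen with earlier results of these data known. Promoter sequences came from RefSeq (GRCh38.p14). Some genes of the lists are not reported here.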

Additional observations from a re-analysis of the deposited data

How the results depend on the processing

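Between the pure lines, LHX1, SALL1, EYA1 and SIX2 passed under all 9 alternatives. PAX2 was lost without pure HEK replicate 1 and without pure Jurkat replicate 2, and was not tested without pure HEK replicate 2. The genes called numbered 6827, with 15125 under spike-in scaling (14616 higher in HEK and 509 lower, against 3825 and 3002) and from 3131 to 6227 with a library left out. A lone library is assumed to vary like the other line. Along the mixed percentages 967 genes were called, 91 rising and 876 falling. Spike-in scaling gave 13697 (13485 rising and 212 falling) and 5 factors, the group of file names as a covariate gave 516, and leaving out a library gave from 572 to 1155 genes. The number of factors called between 80% HEK and pure HEK, a comparison chosen after seeing the data, ran from 0 to 1 with a library left out. The cause of these changes was not tested, beyond the fewer libraries in some. With the share taken from spike-ins, the median level per HEK share was lower for all 8 factors, by less than 1 SD. That SD was taken over the mixed libraries of all percentages and was wide, 7.95 CPM for EYA1 with a median of 17.4. The comparison therefore sets only a loose limit, and single libraries were not compared. No paired analysis was possible because the labels give no replicate number shared between conditions. At this depth, PAX8 was at the floor and OSR1 had a wide interval, and neither passed without the filter on low counts.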

Other observations

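Neuronal and adrenal markers were counted beside the kidney genes in HEK. Of 7 neuronal markers 4 were tested, and 3 were higher in HEK and 1 in Jurkat by edgeR. Among all genes tested, 24.2% were higher in HEK and 19.0% higher in Jurkat. NEFM, a neurofilament subunit, was at 1152 and 1324 CPM in HEK and 9.62 and 4.84 in Jurkat, and NEFL at 141 and 145 CPM against 0.671 and 1.13. INA, a further intermediate filament gene of neurons, was at 29.3 and 21.6 CPM in HEK and 7.61 and 9.19 in Jurkat. TUBB3 was higher in Jurkat, a direction that turned with spike-in scaling, and STMN2 was at 0 in the 4 pure libraries. In the 10 mixed libraries STMN2 lay between 0.183 and 1.12 CPM. None of the 5 adrenal cortex markers was tested for low counts, with NR5A1, NR0B1 and CYP11A1 at 0 in the 4 pure libraries and STAR the most abundant. The list summed to 0.317 and 0.218 CPM in HEK and 1.34 and 2.42 CPM in Jurkat. Of 5 mesenchymal markers 4 were tested, and CDH2 and COL1A1 were higher in HEK, with CDH2 at 101 and 115 CPM against 28.3 and 16.2.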
